A study of Mus musculus with 16 samples.

Results

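Corticosteroid receptors and the genes around them were followed in sorted mouse Paneth cells as a set of 8 genes chosen by name, out of 55414 genes in the deposited table of read counts. The set holds both receptors (Nr3c1 and Nr3c2), a receptor chaperone (Fkbp4), the enzymes that activate or inactivate corticosteroids (Hsd11b1 and Hsd11b2), steps of corticosteroid synthesis (Cyp11a1 and Cyp11b1), and Nr5a2, a nuclear receptor linked to steroid synthesis in the gut. Paneth cells are secretory cells at the base of the small intestinal crypts. RNA of 16 libraries was measured, in 4 groups of 4 that differ in 2 injections given 1 h apart. The PBS+PBS group received the vehicle (PBS) in both injections, the PBS+TNF group PBS and then tumour necrosis factor (TNF), the DEX+PBS group DEX and then PBS, and the DEX+TNF group DEX and then TNF. Sampling followed 3 h after the last injection. DEX commonly stands for dexamethasone, a synthetic glucocorticoid, although the sources used here do not write it out. The study's methods give C57BL/6J as the strain of the mice from which its Paneth cells were sorted, and the labels give no age, dose or allele. The labels call the samples biological replicates but tie no library to an animal.

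Glucocorticoids bind the glucocorticoid receptor, the product of Nr3c1, and can also bind the mineralocorticoid receptor, the product of Nr3c2, whose other ligand is aldosterone. In many epithelia the enzyme made from Hsd11b2 inactivates corticosterone, the glucocorticoid of mice, and so keeps it from the mineralocorticoid receptor, while the enzyme made from Hsd11b1 does the reverse and needs NADPH supplied by the product of H6pd. The gut epithelium can make glucocorticoids itself, with Cyp11a1 and Cyp11b1 catalysing the first and the last step, and Nr5a2 is known as the transcription factor that drives these genes there.

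Library totals ran from 7286307 to 15832111 counts, and levels are given as counts per 1000000 (CPM) after scaling of the library sizes. Sums over cell type markers are the exception and are CPM of the unscaled library totals. By these, the 8 Paneth cell markers together made up 410713 to 613166 CPM in all 16 libraries. Replicates 3 and 4 of DEX+TNF stood apart from replicates 1 and 2. The mean log2 CPM of 8 TNF response genes was 6.31 and 6.21 in DEX+TNF replicates 1 and 2 but 1.04 and 2.24 in replicates 3 and 4, while PBS+TNF libraries ran from 5.96 to 6.36 and the 8 libraries without TNF from 0.83 to 1.43. Nfkbia, an NF-kB target that encodes an inhibitor of NF-kB, showed the same split, with 330 and 382 CPM in DEX+TNF replicates 1 and 2 and 28.3 and 41.0 CPM in replicates 3 and 4. Sgk1, a gene induced by glucocorticoids, stood at 33.6 and 115 CPM in replicates 3 and 4. The highest PBS+PBS value was 3.64 CPM and the highest PBS+TNF value 7.94 CPM. These libraries thus held low levels of TNF response genes although their label names TNF. Replicates 1 and 2 carry the same label, with DEX before TNF. What set replicates 3 and 4 apart, DEX or another cause, was not tested and cannot be told from the labels. The members' differences between DEX+TNF and another group are given with and without these libraries, a choice made on the TNF response itself. DEX+TNF replicates 3 and 4 also differed in other cells' markers, although the study sorted Paneth cells by FACS, a step meant to remove other cell types. Summed over 6 tuft cell markers, replicates 1 and 2 held 1.68 and 0.165 CPM and replicates 3 and 4 held 143 and 1033 CPM. Replicate 4 also had the highest sums of the 16 libraries over 8 enterocyte markers (787 CPM) and 6 stem cell markers (2354 CPM).

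Of the 8 genes, 5 had enough counts to be tested (Nr3c1, Nr3c2, Hsd11b2, Fkbp4 and Nr5a2), and the other 3 were at or near 0. Only 1 of these 5 passed the test in any of the 5 comparisons made with all libraries. This was Nr3c2, which was higher in PBS+TNF than in PBS+PBS. Sequences upstream of 3 genes followed library by library further on are shown first. They are the 250 bases before the transcription start of Nr3c2, the member called, of Fkbp4, the receptor chaperone, whose fitted difference had the opposite sign and was not called, and of H6pd, which had the largest increase in PBS+TNF versus PBS+PBS among the called pathway genes. Letters are from RefSeq promoters on GRCm38.p6, where these windows are chr8:76902080-76902329 on the plus strand, chr6:128438657-128438906 on the minus strand and chr4:150003237-150003486 on the minus strand. Capitals mark a match to any of the motifs searched.
Nr3c2: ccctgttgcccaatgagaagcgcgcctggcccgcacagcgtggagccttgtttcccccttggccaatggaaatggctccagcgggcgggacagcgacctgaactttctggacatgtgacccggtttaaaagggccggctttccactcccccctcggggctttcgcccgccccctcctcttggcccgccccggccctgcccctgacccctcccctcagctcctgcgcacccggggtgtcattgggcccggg
Fkbp4: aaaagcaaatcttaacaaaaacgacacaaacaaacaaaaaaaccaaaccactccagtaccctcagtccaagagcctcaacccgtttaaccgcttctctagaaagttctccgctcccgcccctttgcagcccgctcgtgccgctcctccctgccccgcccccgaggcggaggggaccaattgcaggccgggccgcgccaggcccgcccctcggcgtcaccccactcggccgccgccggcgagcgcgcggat
H6pd: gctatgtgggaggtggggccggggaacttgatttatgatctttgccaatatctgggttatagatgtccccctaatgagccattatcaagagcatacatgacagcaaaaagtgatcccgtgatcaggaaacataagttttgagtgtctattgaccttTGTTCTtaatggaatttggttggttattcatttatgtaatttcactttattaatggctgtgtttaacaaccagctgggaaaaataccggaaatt

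The motifs, each searched on both strands, were an NF-kB motif (GGG, any 2 bases, T, any 2 bases, CC), a glucocorticoid response element (GNACA and TGTNC with any 3 bases between them), the shorter AGAACA that overlaps one arm of that element, an Nr5a2 motif written CAAGGNCA and a heat shock element (TTC, GAA and TTC with any 2 bases between each). No match lay in the windows of Nr3c2 or Fkbp4. The H6pd window held AGAACA once, on the minus strand (printed as TGTTCT), with its first letter 94 bases before the start. Over all 32851 RefSeq promoters, windows of these 250 bases held the NF-kB motif in 15.9%, AGAACA in 16.1%, the Nr5a2 motif in 5.53%, the heat shock element in 0.466% and the full glucocorticoid element in 0.387%. The RefSeq table held 1 promoter each for Nr3c2, Hsd11b1 and Fkbp4, and 2 each for Cyp11a1 and Nr5a2. Neither the Hsd11b1 window nor those of Cyp11a1 held a match, and each Nr5a2 window held AGAACA once, at 29 and at 188 bases before its start. No window was read for Nr3c1, Hsd11b2 and Cyp11b1.

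Nr3c2 encodes the mineralocorticoid receptor and lies at chr8:77625576-77971863 on the plus strand of GRCm39. Its level was 19.8, 16.4, 19.6 and 13.7 CPM in the 4 PBS+PBS libraries and 35.3, 58.0, 32.1 and 46.1 CPM in the 4 PBS+TNF libraries. Every PBS+TNF library was above every PBS+PBS library. After DEX alone the libraries held 16.4, 15.6, 14.3 and 23.0 CPM, a range that overlapped that of PBS+PBS. In DEX+TNF, replicates 1 and 2 held 33.6 and 38.5 CPM, within the PBS+TNF range, and replicates 3 and 4 held 9.80 and 8.28 CPM, below every library without TNF. The group means, in order, were 42.9 ± 11.7 CPM in PBS+TNF, 22.5 ± 15.7 in DEX+TNF, 17.4 ± 2.90 in PBS+PBS and 17.3 ± 3.90 in DEX+PBS (SD, n = 4 each). Neighbours in this order overlapped in range.

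Nr3c2 rose in PBS+TNF versus PBS+PBS by 1.30 ± 0.40 on the log2 scale (± SE, adjusted p = 0.0399 by edgeR's quasi-likelihood test with Benjamini-Hochberg adjustment over all genes tested). It was 1 of 5 tested members called, where 12.5% of all 11809 tested genes were called and 7.15% were called higher. Of those calls 57.2% were higher, or 46.3% with upper-quartile scaling, which moved the median of all genes from -0.035 to -0.15. The call sat close to the threshold. It was kept in 14 of 25 alternative analyses, over which the log2 fold change ran from 1.13 to 1.42 and the adjusted p from 0.000573 to 0.111. It was lost with no low-count filter (adjusted p = 0.0619 by edgeR) and without any single library of PBS+PBS or PBS+TNF, or replicate 1 or 2 of DEX+PBS (0.0508 to 0.111). With the replicate number as a block the call was kept. In bulk RNA, a change in the level per cell and a change in the cells present cannot be told apart. At unscaled library totals, the 8 enterocyte markers summed to 182 to 380 CPM in PBS+PBS and to 31.3 to 117 CPM in PBS+TNF, with no overlap. These sums were mostly 1 gene, Anpep. At scaled library sizes Anpep averaged 176 CPM over all libraries, with Fabp2 next at 24.7 CPM. Up to 4 of the 8 had no count in a PBS+PBS library and up to 6 in a PBS+TNF library. The 6 stem cell markers summed to 508 to 1405 CPM and 280 to 1624 CPM. The part of other cells in the Nr3c2 difference was not tested. An antisense gene, Gm10649, overlaps 751 exonic bases of Nr3c2 and held 12 counts over all libraries against 5622 for Nr3c2.

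After DEX, the difference in Nr3c2 was -0.0015 ± 0.39 on the log2 scale (adjusted p = 1 by edgeR). Between DEX+TNF and PBS+TNF it was -0.93 ± 0.39 (adjusted p = 0.349 by edgeR), and -0.25 ± 0.27 without DEX+TNF replicates 3 and 4 (adjusted p = 0.709). Between DEX+TNF and DEX+PBS it was 0.37 ± 0.39 (adjusted p = 0.862 by edgeR), and 1.05 ± 0.26 without these libraries (adjusted p = 0.0161). Both libraries were doubted for their low TNF response genes, so the values without them rest on a choice made from the data. The interaction is the difference that TNF made after DEX less the one it made after PBS, and was -0.93 ± 0.56 for Nr3c2 (adjusted p = 1.00 by edgeR), and -0.25 ± 0.35 without DEX+TNF replicates 3 and 4 (adjusted p = 0.972).

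**Figure D1:**
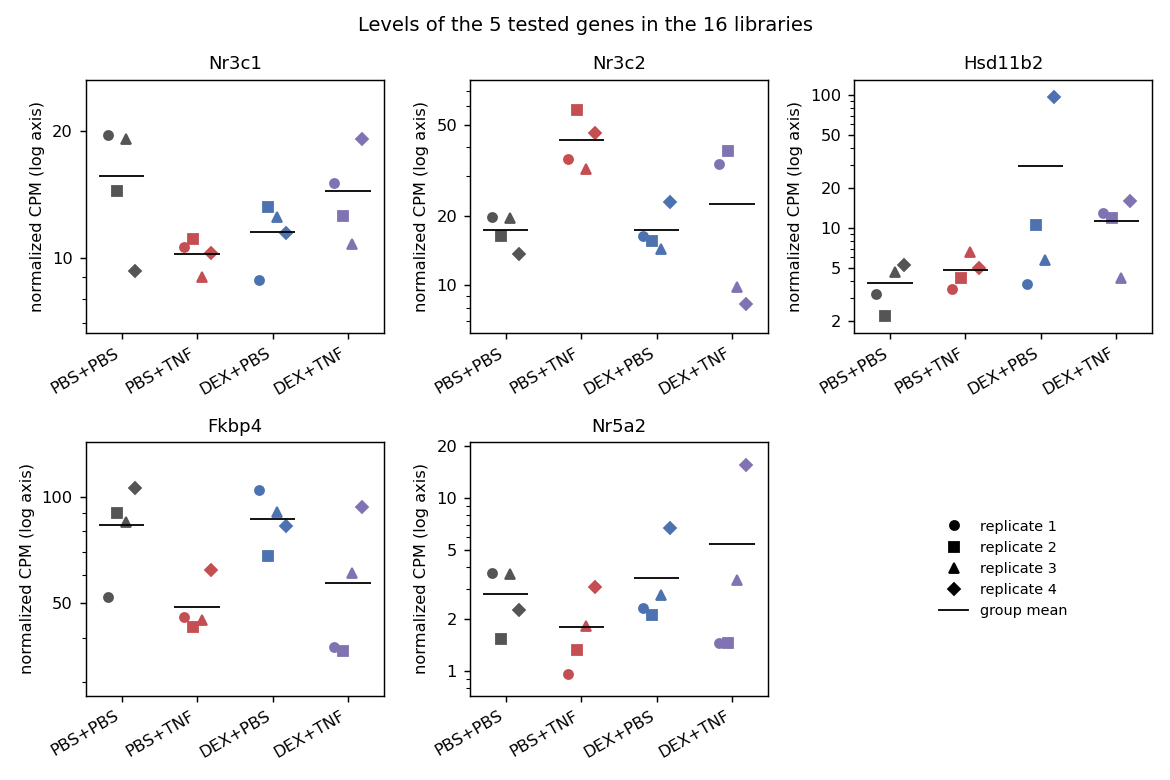
Normalized CPM (log axis) of the 5 tested genes in each library, by injection group, with a marker shape for each replicate number and a line at the group mean. Nr3c2 sits at 32.1 to 58.0 CPM in PBS+TNF and at 13.7 to 19.8 CPM in PBS+PBS, while DEX+TNF splits into a pair at 33.6 and 38.5 CPM and a pair at 9.80 and 8.28 CPM.

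Nr3c1, the glucocorticoid receptor gene at chr18:39543598-39652474 on the minus strand of GRCm39, was detected in all 16 libraries. Its level was 19.6, 14.4, 19.2 and 9.29 CPM in PBS+PBS and 10.6, 11.1, 9.0 and 10.3 CPM in PBS+TNF. A single PBS+PBS library, replicate 4, lay among the PBS+TNF values and the other 3 lay above them. DEX+PBS libraries held 8.86, 13.2, 12.5 and 11.5 CPM, and DEX+TNF libraries 15.1, 12.6, 10.8 and 19.1 CPM. Both groups overlapped the vehicle group. Group means in order were 15.6 ± 4.83 CPM in PBS+PBS, 14.4 ± 3.61 in DEX+TNF, 11.5 ± 1.90 in DEX+PBS and 10.2 ± 0.893 in PBS+TNF (SD, n = 4 each), and each overlapped its neighbours in range.

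The difference in Nr3c1 between PBS+TNF and PBS+PBS was -0.62 ± 0.24 on the log2 scale and did not pass the test (adjusted p = 0.108 by edgeR). Without PBS+PBS replicate 4 it was -0.82, and called (adjusted p = 0.0218 by edgeR), where 13.6% of all genes tested were called. For DEX+PBS versus PBS+PBS it was -0.44 ± 0.24 (adjusted p = 1 by edgeR). Between DEX+TNF and PBS+TNF it was 0.50 ± 0.24 (adjusted p = 0.435) and between DEX+TNF and DEX+PBS 0.33 ± 0.24 (adjusted p = 0.720), and leaving out DEX+TNF replicates 3 and 4 gave 0.44 and 0.27. The interaction for Nr3c1 was 0.94 ± 0.34 (unadjusted p = 0.0135, adjusted p = 0.827 by edgeR; 0.88 ± 0.36 without DEX+TNF replicates 3 and 4, adjusted p = 0.857), the only member with an unadjusted p under 0.05 there, where 642 of all tested genes had one and 0% were called.

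The balance of both receptors within a library was read as the log2 ratio of their normalized CPM, Nr3c1 to Nr3c2. It was -0.01, -0.18, -0.03 and -0.55 in PBS+PBS and -1.72, -2.37, -1.82 and -2.15 in PBS+TNF. Every PBS+TNF library was below every PBS+PBS library. DEX+PBS libraries gave -0.88, -0.24, -0.20 and -1.0. DEX+TNF replicates 1 and 2 gave -1.15 and -1.60, and replicates 3 and 4 gave 0.14 and 1.20. The mean ratio was -2.02 ± 0.30 in PBS+TNF and -0.19 ± 0.25 in PBS+PBS (SD, n = 4 each), a difference of -1.82 (two-sided exact permutation test, p = 0.0286, adjusted p = 0.0457 over 8 tests). The unadjusted 0.0286 is the smallest p that 4 against 4 libraries allow, and the adjusted p depends on how many other tests reached it. The call was lost without PBS+PBS replicate 4 or any single PBS+TNF library (exact permutation test, adjusted p 0.0571 to 0.114). DEX+PBS differed from PBS+PBS by -0.38 (exact permutation test, adjusted p = 0.196). DEX+TNF differed from PBS+TNF by 1.66 (exact permutation test, adjusted p = 0.0457), and by 0.64 without DEX+TNF replicates 3 and 4 (adjusted p = 0.152). With 2 against 4 libraries this test cannot reach the threshold, and replicates 1 and 2 still lay above every PBS+TNF library. The call made with all libraries was lost without any single PBS+TNF library (exact permutation test, adjusted p 0.137 to 0.152). DEX+TNF and DEX+PBS differed by 0.22 (exact permutation test, adjusted p = 0.771), and by -0.80 in the opposite direction without both libraries. Where a comparison involves DEX+TNF, the size of the difference therefore changed with replicates 3 and 4, and against DEX+PBS its direction did too.

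Fkbp4 encodes FKBP52, an immunophilin that joins the Hsp90 complex of steroid receptors, at chr6:128406698-128415665 on the minus strand of GRCm39. The PBS+PBS libraries held 52.1, 89.9, 85.2 and 106 CPM and the PBS+TNF libraries 45.8, 42.9, 44.9 and 62.2 CPM. All but the first PBS+PBS library were above all PBS+TNF libraries. DEX+PBS libraries held 104, 68.3, 90.9 and 82.7 CPM. DEX+TNF replicates 1 and 2 held 37.5 and 36.5 CPM, below every other library, and replicates 3 and 4 held 60.9 and 93.7 CPM, within the range of the libraries without TNF. Group means in order were 86.6 ± 15.2 CPM in DEX+PBS, 83.3 ± 22.6 in PBS+PBS, 57.2 ± 26.8 in DEX+TNF and 49.0 ± 8.95 in PBS+TNF (SD, n = 4 each), and neighbours overlapped.

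The Fkbp4 difference between PBS+TNF and PBS+PBS was -0.77 ± 0.29 on the log2 scale, short of the threshold (adjusted p = 0.0987 by edgeR). Leaving out DEX+TNF replicates 3 and 4, which are in neither group but enter the shared spread, kept it at -0.76 ± 0.22 and brought it past the threshold (adjusted p = 0.0227 by edgeR), where 17.7% of all genes tested were called. Against PBS+PBS, DEX+PBS gave 0.06 ± 0.29 (adjusted p = 1 by edgeR). It was 0.22 ± 0.29 between DEX+TNF and PBS+TNF (adjusted p = 0.816 by edgeR) and -0.60 ± 0.29 between DEX+TNF and DEX+PBS (adjusted p = 0.502). Without DEX+TNF replicates 3 and 4 these became -0.40 ± 0.27 (adjusted p = 0.586) and -1.22 ± 0.28 (adjusted p = 0.0102). Across the 16 libraries, log2 CPM of Fkbp4 and Nr3c2 ran opposite to each other, with Pearson r = -0.72 and Spearman rho = -0.74, given as a description because libraries of a group share their treatment.

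**Figure D2:**
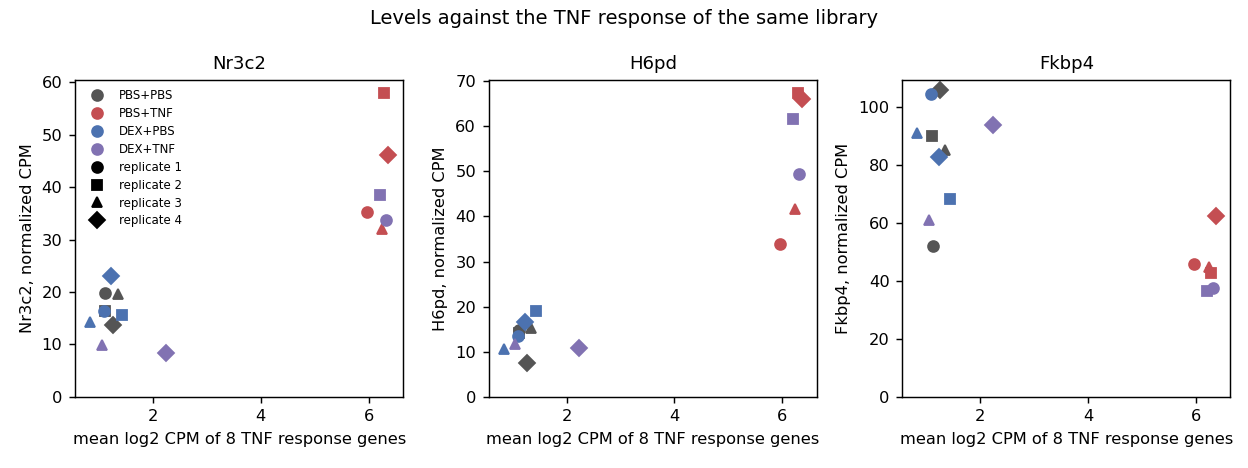
Normalized CPM of Nr3c2, H6pd and Fkbp4 in each of the 16 libraries against the mean log2 CPM of 8 TNF response genes in the same library, coloured by injection group and with a marker shape for each replicate number. The 6 libraries with a TNF response near 6 hold the higher Nr3c2 and H6pd values, and DEX+TNF replicates 3 and 4 lie far to their left, at 1.04 and 2.24, with Nr3c2 below that of every library without TNF.

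Fkbp5 encodes FKBP51, the immunophilin that competes with FKBP52 for receptor complexes and is a known glucocorticoid target. It stood at 6.51, 16.1, 21.4 and 7.79 CPM in PBS+PBS, 12.3, 23.5, 18.1 and 31.0 CPM in PBS+TNF, 63.2, 61.3, 47.3 and 79.5 CPM in DEX+PBS, and 43.2, 44.5, 44.6 and 135 CPM in DEX+TNF. All DEX libraries were above all libraries without DEX. The difference was 2.27 ± 0.44 on the log2 scale between DEX+PBS and PBS+PBS (adjusted p = 0.282 by edgeR) and 1.65 ± 0.43 between DEX+TNF and PBS+TNF (adjusted p = 0.109). Leaving out DEX+TNF replicates 3 and 4 gave 2.27 (adjusted p = 0.0475 by edgeR, and 0.0372 without replicate 4 alone) and 1.04 ± 0.40 (adjusted p = 0.453). The log2 ratio of Fkbp5 to Fkbp4 within a library averaged -2.79 ± 0.75 in PBS+PBS, -1.26 ± 0.45 in PBS+TNF, -0.47 ± 0.43 in DEX+PBS and 0.14 ± 0.42 in DEX+TNF (SD, n = 4 each). It was higher by 1.53 in PBS+TNF and by 2.32 in DEX+PBS, each against PBS+PBS, and by 1.40 in DEX+TNF against PBS+TNF. None of these 3 comparisons overlapped (exact permutation test, adjusted p = 0.0457 each). The unadjusted p was 0.0286 each, the smallest the design allows. Without DEX+TNF replicates 3 and 4 the last was 1.51, where 2 against 4 libraries cannot reach the threshold. Without PBS+PBS replicate 4 the calls for PBS+TNF and for DEX+PBS were lost, and without any single PBS+TNF library so were both calls that involve PBS+TNF (exact permutation test, adjusted p 0.0571 to 0.114). DEX+TNF against DEX+PBS gave 0.61 (exact permutation test, adjusted p = 0.152), and 0.71 without DEX+TNF replicates 3 and 4 (adjusted p = 0.152). Fkbp5 in PBS+TNF versus PBS+PBS differed by 0.71 ± 0.42 (adjusted p = 0.315 by edgeR), so that neither gene of the ratio passed the test on its own there.

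**Figure D3:**
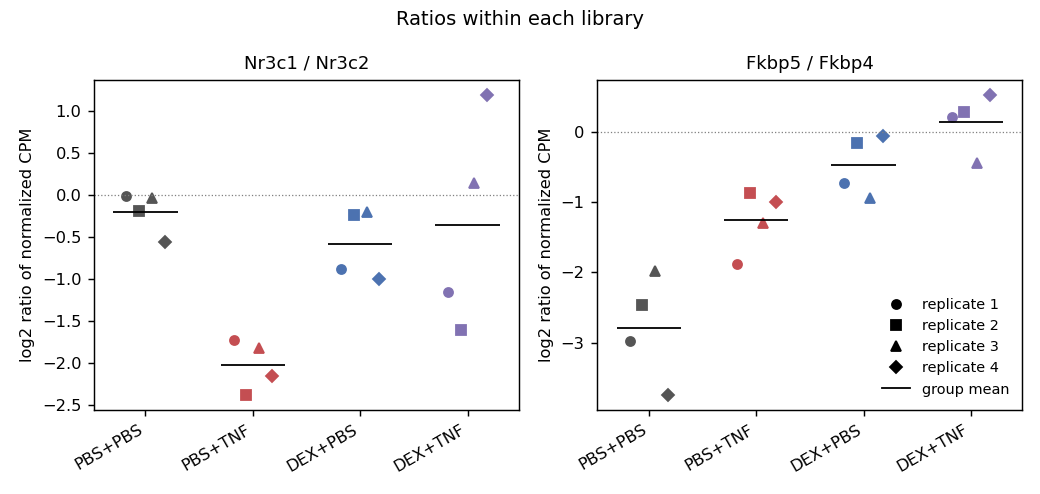
Log2 ratio of normalized CPM within each library, of Nr3c1 to Nr3c2 and of Fkbp5 to Fkbp4, by injection group, with a marker shape for each replicate number and a line at the group mean. The Nr3c1 to Nr3c2 ratio lies between -2.37 and -1.72 in PBS+TNF and between -0.55 and -0.01 in PBS+PBS, and DEX+TNF splits into a lower and an upper pair.

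Hsd11b2, at chr8:106245369-106250620 on the plus strand of GRCm39, encodes the enzyme that inactivates corticosterone. The level was 3.17, 2.17, 4.70 and 5.28 CPM in PBS+PBS and 3.47, 4.22, 6.61 and 5.0 CPM in PBS+TNF. These groups overlapped, with a difference of 0.36 ± 0.78 on the log2 scale (adjusted p = 0.833 by edgeR). The DEX+PBS libraries held 3.76, 10.5, 5.73 and 96.5 CPM, so that replicate 4 alone carried most of the group's counts. DEX+TNF libraries held 12.9, 11.8, 4.18 and 16.1 CPM, of which 3 lay above all libraries without DEX. Group means in order were 29.1 ± 45.0 CPM in DEX+PBS, 11.2 ± 5.04 in DEX+TNF, 4.82 ± 1.34 in PBS+TNF and 3.83 ± 1.42 in PBS+PBS (SD, n = 4 each), and all neighbours overlapped.

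For DEX+PBS versus PBS+PBS the fitted difference in Hsd11b2 was 2.95 ± 0.80 on the log2 scale (unadjusted p = 0.00176, adjusted p = 1 by edgeR). Without DEX+PBS replicate 4 it was 0.82. For DEX+TNF versus PBS+TNF it was 1.21 ± 0.76 (adjusted p = 0.566 by edgeR) and 1.34 ± 0.92 without DEX+TNF replicates 3 and 4. For DEX+TNF versus DEX+PBS it was -1.38 ± 0.74 (adjusted p = 0.554 by edgeR) and turned to 0.75 without DEX+PBS replicate 4. It was -1.25 ± 0.97 without DEX+TNF replicates 3 and 4 (adjusted p = 0.461 by edgeR). By unscaled totals, DEX+PBS replicate 4 had the highest sum over 6 enteroendocrine cell markers of the 16 libraries (48.0 CPM, others 12.8 to 32.9 CPM). PBS+PBS replicate 4 held 29.2 CPM of them with a scaling factor of 0.503, against 1.40 for DEX+PBS replicate 4. Scaled sizes would thus put PBS+PBS replicate 4 higher. The enterocyte marker sum of DEX+PBS replicate 4, 360 CPM, was within the 169 to 377 CPM of its group. The part of other cells in its Hsd11b2 level was not tested.

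The gene of the reverse enzyme was near the limit of detection at this depth. Hsd11b1, at chr1:192903918-192946489 on the minus strand of GRCm39, had 2 counts in PBS+PBS replicate 2 (0.128 CPM, exact Poisson 95% interval 0.0155 to 0.461), 8 counts in DEX+TNF replicate 4 (0.399 CPM, interval 0.172 to 0.786) and 0 in the other 14 libraries. Pooled over all libraries this was 0.0459 CPM (interval 0.0220 to 0.0844). These intervals cover counting error only. The DEX+TNF library with 8 counts was the one with the highest enterocyte, stem and tuft cell marker sums. In a library with 0 counts, a level of up to 0.149 to 0.578 CPM remained possible, which is what 3 counts give there.

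H6pd encodes the enzyme that supplies NADPH to the Hsd11b1 product. Its level was 14.9, 14.1, 15.2 and 7.54 CPM in PBS+PBS and 33.9, 67.3, 41.6 and 66.1 CPM in PBS+TNF, without overlap. It was 13.6, 19.0, 10.7 and 16.6 CPM in DEX+PBS. DEX+TNF split again, with 49.4 and 61.7 CPM in replicates 1 and 2 and 11.7 and 10.9 CPM in replicates 3 and 4. H6pd rose in PBS+TNF versus PBS+PBS by 2.01 ± 0.47 on the log2 scale (adjusted p = 0.0105 by edgeR), and was called in all 25 alternatives. In DEX+TNF versus DEX+PBS it was called only without DEX+TNF replicates 3 and 4.

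Genes of corticosteroid synthesis were at or near 0. Cyp11a1, at chr9:57913694-57935933 on the plus strand of GRCm39, encodes the enzyme that cleaves the cholesterol side chain and had 1 count in all, in PBS+PBS replicate 1. A gene on the same strand, Gm17322, overlaps 145 exonic bases of Cyp11a1 and held 99 counts. Cyp11b1, the 11beta-hydroxylase gene at chr15:74699444-74713748 on the minus strand, had 0 of 206560690 counts, which allows a level of up to 0.0138 CPM, or 3 counts, over all libraries at their scaled sizes. Of 15 further genes of steroid synthesis, 5 passed the filter on low counts (Stard3, Tspo, Fdx1, Fdxr and Por), none was called in any of the 4 pairwise comparisons by edgeR or DESeq2, and 1 had an unadjusted p under 0.05 when PBS+TNF was set against PBS+PBS, 0 for DEX+PBS against PBS+PBS, 1 for DEX+TNF against PBS+TNF and 0 for DEX+TNF against DEX+PBS. The 5 tested genes act in cholesterol transport and electron transfer in many cells. Cyp21a1, Cyp11b2, Hsd3b1, Hsd3b6 and Nr0b1 were at 0 in all libraries. Star, which brings cholesterol into the mitochondrion, reached at most 0.534 CPM, with 39 counts in all. Reads of the Hsd3b and Cyp11b paralogs could have been split between them in counting.

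Nr5a2, at chr1:136770303-136888186 on the minus strand of GRCm39, was detected in all libraries at low level. The PBS+PBS libraries held 3.68, 1.53, 3.63 and 2.26 CPM and the PBS+TNF libraries 0.963, 1.33, 1.83 and 3.07 CPM. DEX+PBS libraries held 2.31, 2.11, 2.75 and 6.73 CPM and DEX+TNF libraries 1.45, 1.46, 3.37 and 15.6 CPM. The highest values came from replicate 4 of DEX+TNF and of DEX+PBS. By unscaled totals, their stem cell marker sums (2354 and 1621 CPM) were the highest and the third highest of the 16 libraries. The part of these cells was not tested. The differences in Nr5a2 were -0.58 ± 0.67 on the log2 scale for PBS+TNF against PBS+PBS, 0.34 ± 0.66 for DEX+PBS against PBS+PBS, 1.57 ± 0.67 for DEX+TNF against PBS+TNF and 0.66 ± 0.65 for DEX+TNF against DEX+PBS (adjusted p = 0.650, 1, 0.352 and 0.844 by edgeR). Without DEX+TNF replicates 3 and 4 the last pair were -0.36 and -1.27, in the opposite direction, and neither passed the test. Group means in order were 5.47 ± 6.82 CPM in DEX+TNF, 3.47 ± 2.19 in DEX+PBS, 2.78 ± 1.06 in PBS+PBS and 1.80 ± 0.920 in PBS+TNF (SD, n = 4 each), and all neighbours overlapped. Nr0b2, whose product represses Nr5a2 in the liver, had 9 counts in 3 libraries.

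Across DEX+PBS versus PBS+PBS, 0 of the 5 tested members were called by edgeR or DESeq2, with 1 at an unadjusted p under 0.05 (Hsd11b2), and 0.00847% of all genes were called. In DEX+TNF versus PBS+TNF, 0 of 5 were called by either tool and 2 had an unadjusted p under 0.05 (Nr3c2 and Nr5a2), where 0.339% of all genes were called. In DEX+TNF versus DEX+PBS, 0 of 5 were called and 0 had an unadjusted p under 0.05 with all libraries, where 0.339% of all genes were called. Without DEX+TNF replicates 3 and 4, both Nr3c2 and Fkbp4 were called in that comparison, where 10.5% of all 12223 genes then tested were called. The median log2 fold change of the 5 tested members was -0.58 in PBS+TNF against PBS+PBS, 0.06 in DEX+PBS against PBS+PBS, 0.50 in DEX+TNF against PBS+TNF and 0.33 in DEX+TNF against DEX+PBS, beside -0.03, -0.02, 0.03 and 0.03 over all tested genes. The comparisons share groups and are not independent of each other.

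**Figure D4:**
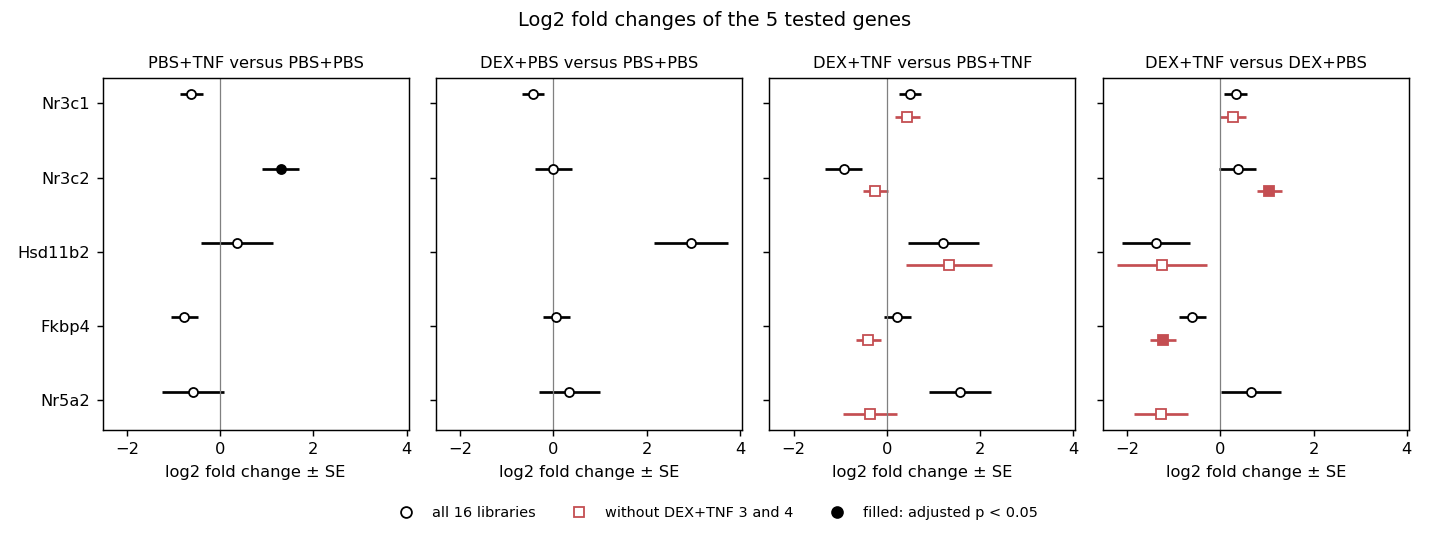
Log2 fold change with its SE of the 5 tested genes in the 4 pairwise comparisons, with all 16 libraries (circles) and, where DEX+TNF takes part, without its replicates 3 and 4 (squares), filled where the adjusted p was under 0.05. With all libraries Nr3c2 in PBS+TNF versus PBS+PBS (1.30) is the only filled point, and without both libraries Nr3c2 (1.05) and Fkbp4 (-1.22) are filled in DEX+TNF versus DEX+PBS, where 10.5% of all genes were then called.

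Levels between genes were compared as CPM per kilobase of merged exons, averaged over the 16 libraries. Fkbp4 was the highest member, at 18.4, above 94.9% of tested genes. Hsd11b2 followed at 6.59, a mean raised by DEX+PBS replicate 4, then Nr3c2 at 2.93, Nr3c1 at 1.64 and Nr5a2 at 0.392. In PBS+PBS, where Hsd11b2 was not raised by that library, it stood at 2.06 ± 0.763, Nr3c2 at 2.03 ± 0.339 and Nr3c1 at 1.98 ± 0.613 CPM per kilobase (SD, n = 4 each), so that these 3 genes did not differ beyond their spread. In PBS+TNF the order opened up, with Nr3c2 at 5.01 ± 1.37, Hsd11b2 at 2.60 ± 0.724 and Nr3c1 at 1.30 ± 0.113 CPM per kilobase. H6pd stood at 1.37 ± 0.385 in PBS+PBS and at 5.55 ± 1.81 in PBS+TNF on the same scale.

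Around the receptors, 14 chaperone and cochaperone genes and 12 coregulator genes all passed the filter, and none was called by edgeR with all libraries in any comparison. DESeq2 called 1 chaperone gene (Dnaja1) after TNF alone, and Fkbp5 both after DEX alone and in DEX+TNF against PBS+TNF, and no coregulator. At an unadjusted p under 0.05 there were 2, 1, 1 and 1 chaperone genes and 1, 1, 0 and 1 coregulator genes for PBS+TNF and for DEX+PBS, each against PBS+PBS, and for DEX+TNF against PBS+TNF and against DEX+PBS, in this order. The median log2 fold change after TNF alone was 0.06 for the chaperone list and -0.01 for the coregulators, beside -0.03 for all genes. Hsp90aa1, the inducible Hsp90 gene, was at 41.4 to 45.2 CPM in PBS+PBS and at 50.1 to 67.4 CPM in PBS+TNF, a difference of 0.44 ± 0.18 on the log2 scale (adjusted p = 0.12 by edgeR). Hsp90ab1, the constitutive Hsp90 gene, differed by -0.05 ± 0.24 (adjusted p = 0.929) and Ptges3, which encodes the cochaperone p23, by 0.26 ± 0.24 (adjusted p = 0.537). Fkbp4 had a lower fitted value after TNF than any of these 14 genes, whose log2 fold changes ran from -0.26 to 0.71.

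Of 13 genes of steroid metabolism and export, 8 were tested. In PBS+TNF against PBS+PBS 1 rose (H6pd) and 2 fell, where 7.15% of all tested genes were called higher and 5.35% lower. Srd5a1, a steroid 5alpha-reductase gene, fell by 0.70 ± 0.22 on the log2 scale, from 10.9 to 13.3 CPM in PBS+PBS to 5.91 to 9.71 CPM in PBS+TNF (adjusted p = 0.0428 by edgeR), and was called in 13 of 25 alternatives. The call was lost without replicate 1, 2 or 3 of PBS+PBS or of PBS+TNF, replicate 2 or 4 of DEX+PBS or replicate 2 of DEX+TNF, with no low-count filter, with the 2 groups fitted alone and with the replicate block (adjusted p 0.0512 to 0.145 by edgeR). Akr1c14, a 3alpha-hydroxysteroid dehydrogenase gene with close paralogs between which reads could be split, fell by 2.27 ± 0.72 (adjusted p = 0.0470 by edgeR). PBS+PBS replicate 4 held 16.5 CPM of it and the other 3 libraries 2.83 to 4.11 CPM, and the call was kept in 11 of 24 alternatives. Without that library the difference was -1.36 (adjusted p = 0.187 by edgeR), and with the replicate block the adjusted p was 0.0816. The call was also lost without PBS+PBS replicate 1 or 2, PBS+TNF replicate 2, 3 or 4, or any DEX+PBS library, with median-of-ratios factors (0.0504) and with no low-count filter (0.0808). With all libraries, none of the list was called in the other pairwise comparisons by edgeR or DESeq2, with 0, 1 and 2 genes at an unadjusted p under 0.05.

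Of 8 genes of epithelial ion transport, known targets of the mineralocorticoid and glucocorticoid receptors, 6 were tested. In PBS+TNF versus PBS+PBS, 2 rose and none fell, where 7.15% of all tested genes were called higher and 5.35% lower. Nedd4l, the gene of a ubiquitin ligase that acts on the epithelial sodium channel, rose by 0.83 ± 0.25 on the log2 scale, from 6.06 to 10.9 CPM to 13.1 to 18.3 CPM (adjusted p = 0.0353 by edgeR), and was called in 18 of 25 alternatives, but not without replicate 1 or 2 of PBS+PBS, replicate 1, 2 or 4 of PBS+TNF or a low-count filter, or with upper-quartile scaling. Atp1b1, a subunit of the sodium pump, rose by 1.02 ± 0.26 (adjusted p = 0.0165 by edgeR), from 177 to 228 CPM to 220 to 489 CPM, and lost the call only without PBS+PBS replicate 1 (adjusted p = 0.0519). The median of the list was 0.92, beside -0.03 for all genes. Sgk1, the serum and glucocorticoid regulated kinase gene, rose in DEX+PBS versus PBS+PBS by 3.76 ± 0.50 (adjusted p = 0.00998 by edgeR), from 1.11 to 3.64 CPM to 17.6 to 48.5 CPM, and in DEX+TNF versus PBS+TNF by 3.06 ± 0.48 (adjusted p = 0.0236). The first call was lost without PBS+PBS replicate 1, 2 or 3, and the second without any single PBS+TNF library or DEX+TNF replicate 3 or 4, and with only the 2 groups fitted (adjusted p = 0.0915 by edgeR). The second was 2.22 ± 0.38 without DEX+TNF replicates 3 and 4 (adjusted p = 0.174 by edgeR), and without replicate 4 alone 2.31 (0.0657). Sgk1 was the only gene of the 76 on the pathway lists called in either comparison by edgeR with all libraries. Over all tested genes, 0.00847% were called in the first and 0.339% in the second. Tsc22d3, a glucocorticoid target outside these lists, differed by 0.88 ± 0.37 in the first (adjusted p = 1 by edgeR) and rose by 2.00 ± 0.39 in the second (adjusted p = 0.0344), a call lost without PBS+PBS replicate 2, any PBS+TNF library, DEX+PBS replicate 1 or 2, or DEX+TNF replicate 3 or 4, with the replicate block (adjusted p = 0.0553 by edgeR) and with only the 2 groups fitted (0.267). Tsc22d3 in that comparison was 1.38 without DEX+TNF replicate 4 and 0.87 ± 0.24 without replicates 3 and 4 (adjusted p = 0.313 by edgeR). Of 14 partners and targets of Nr5a2, 9 were tested and 1 was called in PBS+TNF versus PBS+PBS, at the same shares of all genes. This was Abcg8, a subunit of the sterol exporter, which fell by 2.33 ± 0.57 (adjusted p = 0.0135 by edgeR), from 4.53 to 7.88 CPM to 0.914 to 1.69 CPM. The enterocyte marker sums given with Nr3c2, mostly Anpep, were also lower in PBS+TNF, and the part of enterocytes was not tested. In DEX+TNF versus PBS+TNF edgeR with all libraries called none of these genes and DESeq2 called Abcg5 and Abcg8, both higher. There edgeR called Abcg8 without DEX+TNF replicate 1 or 2, and Abcg5 without replicate 2. In DEX+TNF versus DEX+PBS, 0 of the 54 tested genes on the pathway lists were called by edgeR with all libraries, where 0.339% of all tested genes were. Of the 54, 7 had an unadjusted p under 0.05, and 1 was called by DESeq2 (Scnn1a).

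For each tested member, the genes with the most similar profile over the 16 libraries were found by Pearson r of log2 CPM, given as a description. Patterns that these genes share with a member follow from how they were chosen. For Nr3c2 these were Txnrd1 (r = 0.96), Trib1 (0.96) and Spats2l (0.95). Txnrd1, the cytosolic thioredoxin reductase gene, was at 68.3 to 96.2 CPM in PBS+PBS, 130 to 186 CPM in PBS+TNF and 142, 140, 64.9 and 63.1 CPM in DEX+TNF, the same split as in Nr3c2. For Fkbp4 they were Rpa1 (r = 0.94), Mvk (0.93) and Acp5 (0.91). Mvk, the mevalonate kinase gene of cholesterol synthesis, was at 3.94 to 12.8 CPM in PBS+PBS, 2.53 to 5.35 CPM in PBS+TNF and 1.45, 1.86, 6.12 and 6.23 CPM in DEX+TNF. Nr5a2 was most similar to Entrep1 (r = 0.92), Vdr (0.91), the vitamin D receptor gene, and Adh1 (0.91). DEX+TNF replicate 4 was the highest library for Nr5a2 and for all 3 of these genes, with 122 CPM of Vdr and 181 CPM of Adh1. Nr3c1 was most similar to Tbc1d32 (r = 0.81), Cat (0.80) and Cnnm3 (0.78), and Hsd11b2 to Cyp4f40 (0.74), Pyroxd2 (0.72) and Prcc (0.70). The Spearman rho of Hsd11b2 with Cyp4f40 was only 0.28, and both were highest in DEX+PBS replicate 4.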

How the data were processed

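RNA of 16 libraries of sorted Paneth cells was compared in 4 groups of 4, taken with their replicate numbers from the sample labels. The authors deposited raw read counts per Ensembl gene. Per the labels, stranded mRNA libraries were made from total RNA, and the submitters' processing notes name FastQC 0.12, STAR 2.7.10a, DESeq2 and the mm39 (GRCm39) build. The counting program and its use of strand are not given in the sources used here, so overlapping and antisense genes are uncertain. GENCODE M39 on GRCm39 gave names and coordinates for 54749 of 55414 identifiers. The 8 members and all gene lists were chosen with earlier results of these data known.

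Library totals ran from 7286307 to 15832111 counts. Genes were kept with filterByExpr of edgeR 4.0.16 (11809 genes), given TMM library factors, and tested over all 16 libraries with the robust quasi-likelihood test in 5 comparisons, with Benjamini-Hochberg adjustment within each and a threshold of 0.05. SEs are the log2 fold change divided by the square root of F. Since the labels do not tie libraries to animals, p-values measure the spread between these samples. Log2 CPM used a prior count of 2. Ratios were compared by two-sided exact permutation tests (70 assignments), adjusted over 8 tests. On simulated counts for PBS+TNF versus PBS+PBS (11573 genes), the test recovered 78% of 100 genes changed by 2 and 15% of 100 genes changed by 1 on the log2 scale, with 5 other genes called.

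Genes named were the 8 members, 10 genes fixed by name, called genes of 6 pathway lists (at most 3 per list and comparison), and the 3 genes most similar to each member. Dnaja1, Scnn1a, Abcg5 and the genes listed at or near 0 were named after their values were seen. Other settings tried were DESeq2 1.42.0, scaling by median of ratios, by upper quartile or by TMM with Defa genes left out, a low-value filter dropped or replaced by 5 CPM on average, a fit of the 2 compared groups alone, the replicate block, a prior count of 0.5, leaving out each library, and leaving out DEX+TNF replicates 3 and 4. For the ratios the last was added after seeing the data.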

Additional observations from a re-analysis of the deposited data

Results flagged for a closer look

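Within each group of 4 libraries, the highest and lowest values of the named genes and of both ratios were compared with the rest, and a library was set apart where its gap to the nearest other exceeded the share of the group's range that Dixon's test sets for 4 values. Of 90 groups checked, 17 held such a library, where chance gives about 1 in 20. Where only 1 library of a group had counts, as for Hsd11b1, Cyp11a1 and Nr0b2, the rule is always met. The genes also share libraries, so the 17 cannot be read against 1 in 20. Among the members, Hsd11b2 stood at 96.5 CPM in DEX+PBS replicate 4 against 3.76 to 10.5 CPM in the other 3 libraries. Nr5a2 stood at 6.73 CPM in DEX+PBS replicate 4 (others 2.11 to 2.75 CPM) and at 15.6 CPM in DEX+TNF replicate 4 (others 1.45 to 3.37 CPM). Fkbp4 stood at 62.2 CPM in PBS+TNF replicate 4, above 42.9 to 45.8 CPM. Where the other libraries of a group had no count, single libraries held Hsd11b1 at 0.128 CPM (PBS+PBS replicate 2) and 0.399 CPM (DEX+TNF replicate 4), and Cyp11a1 at 0.0857 CPM (PBS+PBS replicate 1). These are 2, 8 and 1 counts.

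Outside the members, DEX+TNF replicate 4 was the highest of its group for Fkbp5 (135 CPM, others 43.2 to 44.6), Sgk1 (115 CPM, others 24.8 to 33.6), and Hsp90ab1 (551 CPM, others 277 to 314). PBS+PBS replicate 4 was lowest for H6pd (7.54 CPM, others 14.1 to 15.2) and highest for Akr1c14 (16.5 CPM, others 2.83 to 4.11). Akr1c14 was also high in PBS+TNF replicate 1 (2.89 CPM, others 0.844 to 1.19), and Abcg8 in PBS+TNF replicate 2 (1.69 CPM, others 0.914 to 0.990). Nr0b2 had counts in a single library of 3 groups, at 0.352 CPM (PBS+TNF replicate 3), 0.0510 CPM (DEX+PBS replicate 4) and 0.150 CPM (DEX+TNF replicate 4). Of the 17 libraries set apart, 6 were DEX+TNF replicate 4, for Hsd11b1, Nr5a2, Fkbp5, Sgk1, Hsp90ab1 and Nr0b2. That library also had the most genes with a count (16451) and the highest enterocyte, stem and tuft cell marker sums, and their part in these values was not tested.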

How the results depend on the processing

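The number of members called in PBS+TNF against PBS+PBS was 1, and it was 0 with no low-count filter, 2 without DEX+TNF replicates 3 and 4 (Nr3c2 and Fkbp4), and 0 to 2 with a library left out. In DEX+TNF against DEX+PBS it was 0, and 2 without DEX+TNF replicates 3 and 4, where 10.5% of all genes were called. It stayed at 0 in the other 3 comparisons under every alternative run. Of 54 tested pathway genes, 6 were called in PBS+TNF against PBS+PBS (8 with DESeq2, 3 with no filter, 2 to 7 with a library left out). There 12.5% of all tested genes were called. The number was 1 in DEX+PBS against PBS+PBS (2 with DESeq2, 2 without DEX+TNF replicates 3 and 4, 0 to 2 with a library left out). In DEX+TNF against PBS+TNF it was 1 (4 with DESeq2, 0 with only the 2 groups compared, 0 without DEX+TNF replicates 3 and 4, 0 to 3 with a library left out). In DEX+TNF against DEX+PBS it was 0 (1 with DESeq2, 5 without DEX+TNF replicates 3 and 4, at the same 10.5%). Over all genes, calls ran from 916 to 2166 around 1476 in PBS+TNF against PBS+PBS, 0 to 7 around 1 in DEX+PBS against PBS+PBS, 0 to 274 around 40 in DEX+TNF against PBS+TNF, 0 to 1286 around 40 in DEX+TNF against DEX+PBS and 0 to 9 around 0 in the interaction. Fewer libraries enter the fit when one is left out, and the cause of the other changes was not tested.

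Directions turned only for values that did not pass the test. Nr3c2 in DEX+PBS against PBS+PBS was 0.0091 with no filter, 0.0028 with the replicate block, 0.000589 without DEX+TNF replicates 3 and 4, and -0.18 to 0.080 with a library left out. Without DEX+TNF replicates 3 and 4, Fkbp4 and Nr5a2 turned to -0.40 and -0.36 in DEX+TNF against PBS+TNF and to -0.46 and -0.70 in the interaction, Nr5a2 to -1.27 and the log2 ratio of Nr3c1 to Nr3c2 to -0.80 in DEX+TNF against DEX+PBS. With a library left out, ranges that crossed 0 were -0.11 to 0.18 (Fkbp4) and -0.23 to 0.52 (Nr5a2) in DEX+PBS against PBS+PBS, -0.12 to 0.39 (Fkbp4) in DEX+TNF against PBS+TNF, -0.014 to 0.67 (Nr3c2), -1.74 to 0.75 (Hsd11b2), -0.74 to 1.22 (Nr5a2) and -0.29 to 0.64 (the receptor ratio) in DEX+TNF against DEX+PBS, and -2.10 to 0.39 (Hsd11b2), -0.17 to 0.34 (Fkbp4) and -0.16 to 1.80 (Nr5a2) in the interaction.

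Whether replicate numbers pair the libraries was not settled. Of 24 same-numbered pairs, 12 had a correlation of deviations over 0.1. The median was 0.115 for these pairs and -0.061 for the others, and 7 of 16 libraries correlated best with their own number. With the replicate block, calls over all genes in PBS+TNF against PBS+PBS were 1482, and the member called stayed 1. For the ratios the block leaves 16 assignments and cannot pass the threshold: the differences -1.82 and 1.66 (receptor ratio, PBS+TNF against PBS+PBS and DEX+TNF against PBS+TNF) and 1.53, 2.32 and 1.40 (Fkbp5 to Fkbp4, the 3 comparisons that passed) had an adjusted p of 0.143 each. Without DEX+TNF replicates 3 and 4 the second and the last were 0.64 and 1.51. With a library left out they ran from -1.94 to -1.70, 1.15 to 2.08, 1.21 to 1.80, 2.01 to 2.59 and 1.20 to 1.60, and each of the 5 lost its call without at least 1 single library. At this depth, 3 counts correspond to 0.149 to 0.578 CPM, which limits what can be said of Hsd11b1, Cyp11a1 and Cyp11b1.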
